A study of Sus scrofa with 30 samples.

Results

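The genes described here are the solute carriers (SLC genes) of ions, metals, vitamins, bile acids, nucleosides, nucleotide sugars, fatty acids and sugar phosphates in pig embryos before implantation. They were taken from the gene table by symbol. Every symbol of the form SLC, number, A, number was kept, apart from the families of amino acid, peptide, glucose, monocarboxylate and mitochondrial carriers (SLC1, SLC2, SLC3, SLC5, SLC6, SLC7, SLC15, SLC16, SLC25, SLC36, SLC38 and SLC43) and apart from SLC11A2, SLC23A1, SLC23A2 and SLC40A1. The rule used no measured value. It found 118 of the 13103 genes with counts, and 55 further annotated symbols that meet it were not analysed here. The symbols of 3 of the 118 name adaptor proteins and not carriers, namely SLC9A3R1, SLC9A3R2 and SLC4A1AP, which leaves 115 carriers.

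The study sequenced mRNA of 30 single embryos to follow the transcriptome through the onset of elongation and to compare female with male embryos. The groups were Day 8 female, Day 8 male, Day 10 female, Day 10 male, Day 12 female and Day 12 male, with 5 embryos each. All embryos came from synchronized German Landrace × Pietrain gilts, inseminated with sperm of the same Pietrain boar, and no embryo was treated. Gilts were slaughtered on the day concerned, whole embryos with disc and trophectoderm were flushed and frozen singly, and sex was determined by PCR of embryo DNA. The study states that on each day at least a female and a male embryo came from the same sow, but the labels name no gilt, so littermates are treated as independent and p-values measure the spread between these embryos. Each embryo was 1 library, and total counts ran from 6068212 in Day 12 female embryo d12_f_245 to 34002508. Levels are TMM-normalized CPM, a scaling of counts to a common library size, given as the lowest, the median and the highest of the 10 embryos of a day. CPM is not divided by transcript length, so levels are compared between days for 1 gene and not between genes. A gene was called between days at an FDR under 0.001 and an absolute log2 fold change over 1, and between sexes at an FDR under 0.05.

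Solute carriers move small molecules across membranes by facilitated diffusion, exchange or cotransport, without spending ATP directly. Exchangers of protons, bicarbonate and chloride set cell pH and drive fluid across epithelia. SLC39 proteins bring zinc into the cytosol and SLC30 proteins take it out, while SLC31 proteins carry copper. Folate, riboflavin, thiamine and choline also enter cells through members of these families. Before implantation the pig conceptus depends on uterine secretions for these solutes, and its outer layer, the trophectoderm, is the absorbing epithelium.

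On Day 10 compared with Day 8, 24 of the 118 members were called higher, or 20.3%, against 9.88% of all genes. In the same comparison 9 members were called lower, or 7.63%, against 4.20% of all genes. From Day 10 to Day 12, 33 members were called higher (28%) against 14.9% of all genes, and 14 were called lower (11.9%) against 8.39%. Over the whole interval from Day 8 to Day 12, 39 members were called higher (33.1%) against 22.0% of all genes, and 17 lower (14.4%) against 10.4%. These shares of all genes belong beside each count for a substrate group or partner list below. No group was tested against them, and small groups cannot be told apart from them. In total 65 members were called in at least 1 comparison and 53 in none. The median log2 fold change of the members was 0.11, 0.20 and 0.36 in these comparisons, and that of all genes was 0.03, 0.04 and 0.09. Fits to female or male embryos alone, with 5 embryos a day, lost 15 and 14 of the 33 calls for Day 10 over Day 8. Among these were SLC9A3, SLC26A3, SLC26A9, SLC41A1, SLC44A4 and SLC46A3 in both sexes, SLC26A4, SLC31A1 and SLC46A2 in female embryos and SLC19A1, SLC27A5 and SLC28A3 in male embryos. The same fits lost 12 and 16 of the 47 calls for Day 12 over Day 10, and 9 and 10 of the 56 for Day 12 over Day 8. The 3 comparisons share embryos, so their counts are not independent of each other.

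**Figure D1:**
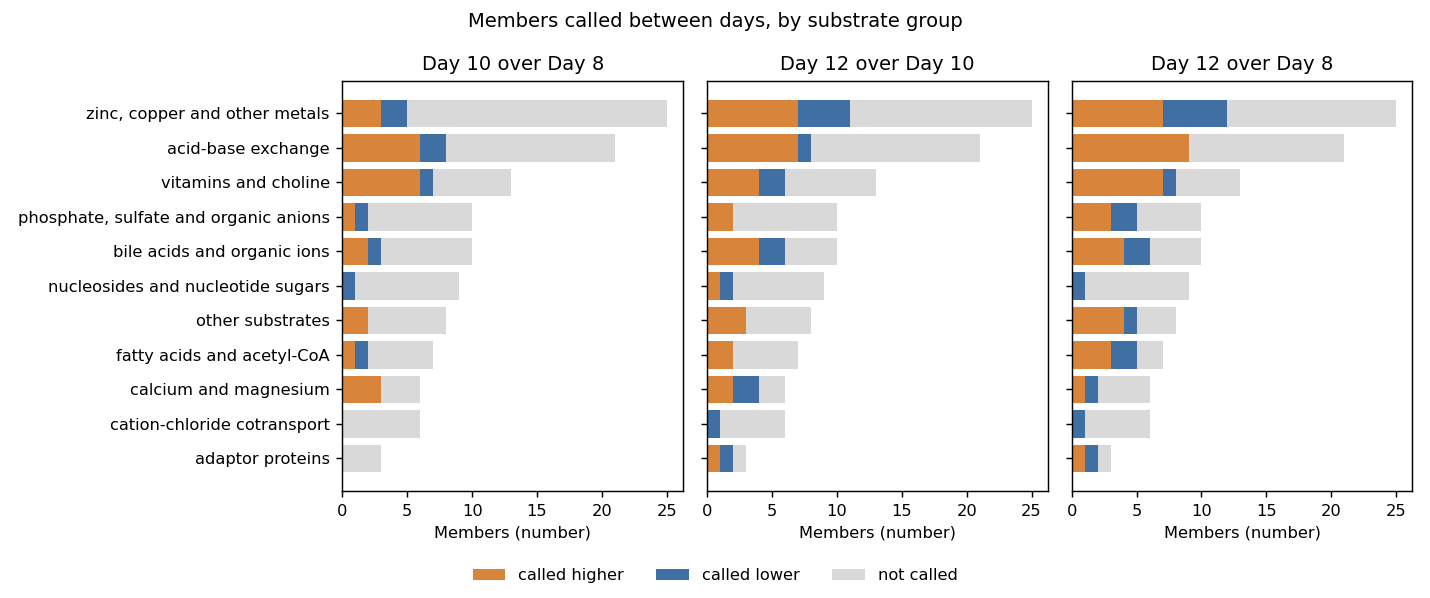
Number of members (horizontal axis) called higher, called lower or not called in each comparison of days, by substrate group (vertical axis). Metal carriers were the largest group with 25 members, acid-base exchangers had 9 members called higher and 0 called lower on Day 12 over Day 8, and 0 of 6 cation-chloride cotransporters were called on Day 10 over Day 8. Of all genes, 22.0% were called higher and 10.4% lower on Day 12 over Day 8, and 9.88% and 4.20% on Day 10 over Day 8.

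From Day 8 to Day 12 the falls of SLC10A1, SLC30A2, SLC28A3, SLC31A1 and SLC31A2, and the rises of SLC26A9, SLC41A1, SLC27A6, SLC26A3 and SLC37A2, were among the largest on the log2 scale. Another 5 members, SLC8A1, SLC24A4, SLC39A2, SLC4A5 and SLC46A2, were called higher on Day 10 than on Day 8 and lower again on Day 12. Since whole embryos were sequenced, fewer cells of a type and less RNA per cell cannot be told apart in any of these values.

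**Figure D2:**
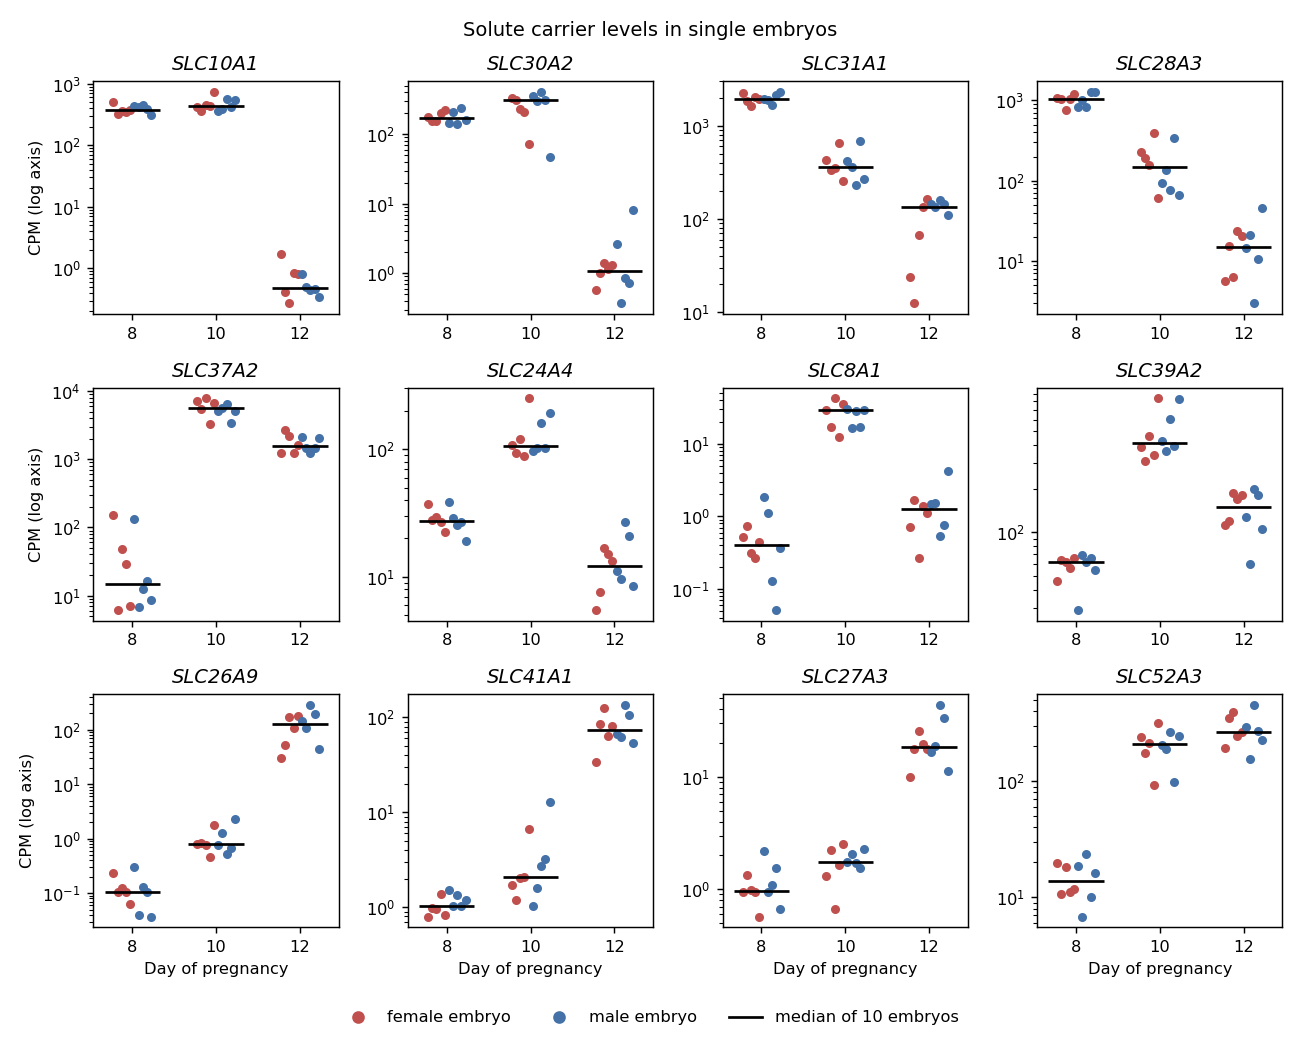
CPM of 12 members (log axis) in each embryo by day of pregnancy (horizontal axis), with female embryos in red, male embryos in blue and the median of the 10 embryos of a day as a black bar. SLC10A1 was between 312 and 746 CPM in all embryos of Days 8 and 10 and at or under 1.74 CPM on Day 12, while SLC26A9 was at or under 2.31 CPM before Day 12 and between 30.8 and 290 CPM on Day 12.

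The acid-base group had 21 members, of the bicarbonate transporters (SLC4), the sodium-proton exchangers (SLC9) and the anion exchangers (SLC26). Of these, 6 were called higher and 2 lower on Day 10 over Day 8, 7 higher and 1 lower on Day 12 over Day 10, and 9 higher and 0 lower on Day 12 over Day 8. The shares of all genes called higher and lower were 9.88% and 4.20%, 14.9% and 8.39%, and 22.0% and 10.4% in these comparisons. The summed level of the 8 SLC26 genes ran from 132 to 195 CPM on Day 8, from 166 to 391 CPM on Day 10 and from 290 to 639 CPM on Day 12. SLC26A9, a chloride channel and exchanger of epithelia, was at 0.0371, 0.105 and 0.302 CPM on Day 8, the lowest, median and highest embryo. Its level was 0.454, 0.787 and 2.31 CPM on Day 10 and 30.8, 128 and 290 CPM on Day 12. The ranges of the 3 days did not overlap, and on Day 12 female embryo d12_f_245 was the lowest and male embryo d12_m_276 the highest. The log2 fold change was 2.91 ± 0.54 (SE) from Day 8 to Day 10 (FDR = 3.34e-05) and 7.00 ± 0.39 from Day 10 to Day 12 (FDR = 9.18e-16). On Day 8, 7 embryos were at or under 3 counts, so the size of the first change is uncertain.

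SLC26A3 and SLC26A4, exchangers of chloride for bicarbonate and, in the case of SLC26A4, iodide, lie close together on chromosome 9 of Sscrofa11.1, at 107480629 to 107518771 and 107365121 to 107431065. CBLL1, the gene of the table between them, was not called in either step (log2 fold changes of -0.82 and 0.78). SLC26A3 had medians of 0.284, 1.35 and 9.27 CPM on Days 8, 10 and 12, with ranges of 0.0469 to 0.567, 0.364 to 3.38 and 1.62 to 36.6 CPM. It was called higher in both steps, by 2.45 ± 0.49 and 3.09 ± 0.44 on the log2 scale (FDR = 0.000107 and 4.18e-07), although neighbouring days overlapped. SLC26A4 had medians of 32.3, 12.1 and 85.9 CPM, and its embryos of Day 10, at 7.37 to 15 CPM, lay below all those of the other days. Its log2 fold change was -1.47 ± 0.22 and then 2.87 ± 0.23 (FDR = 1.5e-06 and 3.05e-12). SLC26A3 and SLC26A4 thus differed in direction from Day 8 to Day 10 and were both higher on Day 12. SLC26A6, which exchanges chloride for oxalate and bicarbonate, was at 45.6 to 56.8 CPM on Day 8 and at 92.9 to 292 CPM on Day 10, and was called higher by 1.79 ± 0.17 (FDR = 4.53e-10).

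Among the sodium-proton exchangers, the apical exchanger SLC9A3 had medians of 5.31, 23.1 and 88.6 CPM on Days 8, 10 and 12. It was called higher by 1.67 ± 0.37 on Day 10 and by a further 1.99 ± 0.37 on Day 12 (FDR = 0.000385 and 2.69e-05), and the Day 12 embryos, at 16.6 to 141 CPM, did not overlap those of Day 8. The first of these calls was lost when counts were scaled by library size alone, and both calls were lost in each sex alone. SLC9A3R1 (NHERF1), the scaffold that ties SLC9A3 to the apical membrane, went the other way. It was at 823, 1078 and 1227 CPM on Day 8, at 646, 885 and 1017 CPM on Day 10 and at 73.1, 144 and 323 CPM on Day 12, with no overlap between Day 12 and the earlier days (log2 fold change of -2.41 ± 0.19 from Day 10, FDR = 2.08e-12). Its paralog SLC9A3R2 was called higher in the same step by 1.95 ± 0.25 (FDR = 5.92e-08), from a median of 2.6 CPM to 8.95 CPM. Ezrin (EZR), which links these scaffolds to actin, had medians of 2887, 2699 and 734 CPM and was called lower on Day 12 over Day 10 (log2 fold change of -1.90, FDR = 1.35e-13).

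The bicarbonate transporter SLC4A2, which exchanges chloride for bicarbonate, was at medians of 145, 141 and 172 CPM and was not called. SLC4A5, a sodium-bicarbonate cotransporter, was at 0 to 0.237 CPM on Day 8, at 1.73 to 7.36 CPM on Day 10 and at 0.145 to 1.25 CPM on Day 12. The Day 10 embryos lay above all others, with a log2 fold change of 4.83 ± 0.37 and then -2.26 ± 0.31 (FDR = 4.28e-12 and 2.34e-07). Since 6 embryos of Day 8 were at or under 3 counts, the size of the first change is uncertain. The span of SLC4A5 overlaps that of MTHFD2, which had medians of 1274, 1064 and 434.8 CPM, and whether counting used strand is not stated. SLC4A7, another sodium-bicarbonate cotransporter, had the opposite pattern, with medians of 4.94, 2.46 and 7.5 CPM (log2 fold change of -1.39 ± 0.33 and 1.83 ± 0.34, FDR = 0.00075 and 2.33e-05), and its days overlapped. Its call on Day 10 over Day 8 was lost in each sex alone, and that on Day 12 over Day 10 in female embryos alone. Of the 7 partner genes of pH regulation in the table (carbonic anhydrases, regulators of the carriers and ezrin), 0 were called on Day 10 over Day 8, and 1 was called higher and 2 lower on Day 12 over Day 10. The 1 that was higher was CA12, a cell surface carbonic anhydrase, with medians of 0.117 and 1.33 CPM on Days 10 and 12 (log2 fold change of 2.84, FDR = 0.000232).

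The cation-chloride cotransporters, which move chloride with potassium or sodium, had 6 members, of which 0 were called on Day 10 over Day 8. In that step 9.88% of all genes were called higher and 4.20% lower. With 6 members, 0 calls cannot be told apart from that share. SLC12A4 (KCC1) had medians of 74.6, 92.9 and 69.1 CPM and was not called. SLC12A2 (NKCC1), which loads epithelial cells with chloride, had medians of 41.7, 28.1 and 25.3 CPM (FDR of at least 0.0261). Of the 6 kinases that control these cotransporters (the WNK family, STK39 and OXSR1), 3 were called higher and 1 lower on Day 12 over Day 10.

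Calcium and magnesium carriers numbered 6. SLC8A1 (NCX1) exchanges sodium for calcium at the plasma membrane, and SLC24A4 exchanges sodium for calcium and potassium. SLC8A1 was at 0.0516, 0.408 and 1.84 CPM on Day 8, at 12.4, 28.6 and 42.1 CPM on Day 10 and at 0.269, 1.25 and 4.26 CPM on Day 12. All Day 10 embryos lay above all embryos of the other days, with log2 fold changes of 5.38 ± 0.45 and -4.18 ± 0.41 (FDR = 2.47e-11 and 3.6e-10). SLC24A4 was at 19, 27.5 and 38.3 CPM on Day 8, at 88, 105.2 and 251 CPM on Day 10 and at 5.5, 12.2 and 26.7 CPM on Day 12. Here too the embryos of Day 10 lay above all others, with log2 fold changes of 2.22 ± 0.23 and -3.27 ± 0.24 (FDR = 2.49e-09 and 5.65e-13). The lower level of SLC24A4 on Day 12 than on Day 8 (-1.05 ± 0.23, FDR = 0.00013) was not called without Day 12 female embryo d12_f_245.

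SLC41A1, a sodium-dependent magnesium exporter, was at 0.798, 1.03 and 1.51 CPM on Day 8, at 1.03, 2.07 and 12.8 CPM on Day 10. On Day 12 its lowest level was 33.6 CPM and its median 74.2 CPM. The Day 12 embryos lay above all others (log2 fold change over Day 10 of 4.52 ± 0.37, FDR = 4.87e-12), and on Day 10 male embryo d10_m_453 and female embryo d10_f_454 were the highest, at 12.8 and 6.74 CPM. SLC41A3 was called higher in this step by 1.31 ± 0.21 (FDR = 2.05e-06), from a median of 0.991 CPM to 2.4 CPM. This call of SLC41A3 was lost in each sex alone. Of the 14 partner genes in the table (calcium pumps, channels and binding proteins, and magnesium transporters), 3 were called higher and 1 lower on Day 10 over Day 8, and 3 higher and 2 lower on Day 12 over Day 10. The epithelial calcium channels TRPV5 and TRPV6 were among the latter 3, with medians of 4.9 and 49.7 CPM for TRPV5 and of 0.792 and 41.3 CPM for TRPV6 on Days 10 and 12 (log2 fold changes of 2.99 and 3.70, FDR = 9.43e-10 and 2.45e-06).

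SLC41A1 lies in a stretch of chromosome 9, from 66344742 to 66593322, that holds 3 of the members. SLC45A3 (66344742 to 66365999), a carrier reported to move sugars with protons, was at 0.211 to 0.905 CPM on Day 8, at 0 to 0.831 CPM on Day 10 and at 3.91, 16 and 84.6 CPM on Day 12, the lowest, median and highest embryo. SLC41A1 (66473369 to 66500367) and SLC26A9 (66557560 to 66593322) follow it. On Day 12 over Day 10 the log2 fold change was 6.08 ± 0.50 for SLC45A3 (FDR = 5.03e-12), 4.52 for SLC41A1 and 7.00 for SLC26A9, and all 3 had Day 12 embryos above all Day 10 embryos. Another 3 genes of the table lie in this stretch. Of these PM20D1 was called higher, with a log2 fold change of 3.24, and NUCKS1 and RAB29 were not, with 0.23 and 0.55. The stretch was noticed after the values were seen.

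The metal carriers were the largest group with 25 members. On Day 10 over Day 8, 3 were called higher and 2 lower, and on Day 12 over Day 10, 7 were called higher and 4 lower. The summed level of the group was 2929 to 3698 CPM on Day 8, 1991 to 2521 CPM on Day 10 and 873 to 1702 CPM on Day 12, without overlap between days. The sum of the 2 copper carriers alone was 1668 to 2385, 266 to 774 and 17 to 168 CPM. The zinc carriers did not share this order. The median sum of the zinc importers was 852, 1141 and 1063 CPM, and that of the zinc exporters 424, 541 and 244 CPM. The lower group sum on Day 10 than on Day 8 thus rested on the copper carriers.

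**Figure D3:**
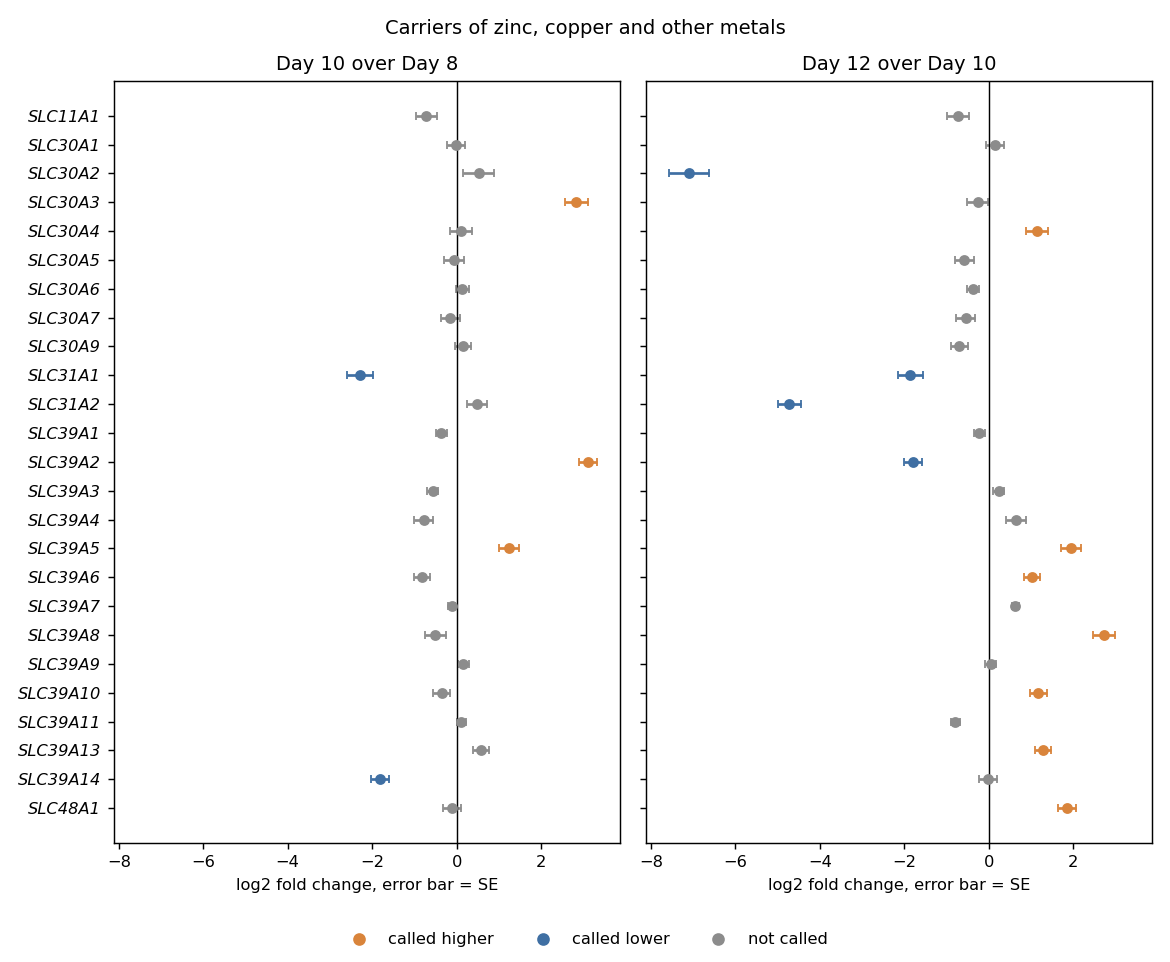
Log2 fold change (horizontal axis, error bar = SE) of the 25 metal carriers (vertical axis) on Day 10 over Day 8, left, and on Day 12 over Day 10, right, with called members in colour. SLC30A2 at -7.10, SLC31A2 at -4.72 and SLC31A1 at -1.86 were called lower on Day 12 over Day 10, and SLC39A8 at 2.72 was the largest called rise in that step.

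SLC31A1 (CTR1), the high-affinity copper importer, was at 1620, 1925 and 2319 CPM on Day 8. It was at 233, 359 and 681 CPM on Day 10 and at 12.4, 135 and 164 CPM on Day 12, and the days did not overlap. The log2 fold change was -2.29 ± 0.30 and -1.86 ± 0.30 (FDR = 2.04e-07 and 3.06e-06). SLC31A2 (CTR2), its paralog in endosomes and lysosomes, is nearby on chromosome 1, at 253795005 to 253805287 against 253868389 to 253893135 for SLC31A1. It was at 39, 67.3 and 95.1 CPM on Day 8, at 32.9, 90.1 and 156 CPM on Day 10 and at 0.723, 3.83 and 4.68 CPM on Day 12, so that the fall came in the second step only (log2 fold change of 0.48 ± 0.23, FDR = 0.0712, and then -4.72 ± 0.27, FDR = 1.21e-15). FKBP15, the gene between them, had a log2 fold change of -0.75 in that step and was not called, but it was called lower on Day 12 over Day 8 (-1.01). Several partners of copper handling were higher on Day 10 than on Day 8 while SLC31A1 was lower. The copper chaperones CCS (medians of 0.233 and 10.8 CPM, log2 fold change of 5.98, FDR = 4.58e-11) and ATOX1 (31.8 and 73.4 CPM, 1.23, FDR = 5.64e-07) and the copper pump ATP7B (53.5 and 157 CPM, 1.49, FDR = 1.37e-06) were called, and the other pump, ATP7A, was not (31.8 and 21.1 CPM, FDR = 0.0162). Of the 8 metal partners in the table, 4 were called higher and 0 lower on Day 10 over Day 8, the fourth being metallothionein MT1A, which binds zinc and copper. The shares of all genes in that step were 9.88% higher and 4.20% lower.

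Among the 8 zinc exporters, SLC30A2 (ZNT2), which loads zinc into secretory vesicles, was at 139, 169 and 241 CPM on Day 8, at 47.8, 306.6 and 411 CPM on Day 10 and at 0.368, 1.08 and 8.12 CPM on Day 12. No Day 12 embryo reached the lowest embryo of the earlier days (log2 fold change over Day 10 of -7.10 ± 0.48, FDR = 5.81e-14). On Day 10 the lowest were male embryo d10_m_453 at 47.8 CPM and female embryo d10_f_454 at 73.5 CPM, and the other 8 were between 211 and 411 CPM. SLC30A3 (ZNT3) was called higher on Day 10, from a median of 5.08 to 29.9 CPM without overlap (2.83 ± 0.27, FDR = 3.4e-10), and SLC30A4 on Day 12, from 4.56 to 10.9 CPM (1.14 ± 0.27, FDR = 0.000549). The call of SLC30A4 was lost when only these 2 days were fitted and in each sex alone. SLC30A1, the exporter of the plasma membrane, was not called, with medians of 19.3, 18.7 and 21.4 CPM.

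Exporters of the Golgi and other compartments, SLC30A5, SLC30A6, SLC30A7 and SLC30A9, were called in no comparison of days, but 3 female embryos of Day 12 were apart from the other 7. SLC30A5 was at 10.3, 13.3 and 37 CPM in female embryos d12_f_245, d12_f_271 and d12_f_289, at 59.5 and 68.8 CPM in the other 2 female embryos and at 69.5 to 81.3 CPM in the 5 male embryos. SLC30A9 was at 8.25, 5.04 and 17.9 CPM in the same 3 embryos and at 27.3 to 31.4 CPM in the other 7. SLC31A1 was at 24, 12.4 and 67.4 CPM in them and at 110 to 164 CPM in the others. Without these 3 embryos, a choice made after the values were seen, SLC31A1, SLC31A2 and SLC30A2 were still called lower on Day 12 over Day 10.

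Of the 13 zinc importers, 2 were called higher and 1 lower on Day 10 over Day 8, and 5 higher and 1 lower on Day 12 over Day 10. SLC39A2 (ZIP2) was at 28.9, 62.2 and 68.9 CPM on Day 8, at 312, 413 and 843 CPM on Day 10 and at 60.1, 148 and 198 CPM on Day 12. Its Day 10 embryos lay above all others, with log2 fold changes of 3.11 ± 0.22 and -1.79 ± 0.21 (FDR = 4.91e-13 and 7.22e-09). SLC39A14 (ZIP14), which carries zinc, iron and manganese, was called lower on Day 10, from a median of 47.8 to 13.2 CPM (-1.82 ± 0.22, FDR = 4e-08), and had a median of 14.4 CPM on Day 12. SLC39A8 (ZIP8), its closest paralog, was at 24.3 to 65.3 CPM on Day 8, at 16.7 to 36.9 CPM on Day 10 and at 38.8, 172 and 376 CPM on Day 12 (2.72 ± 0.26 over Day 10, FDR = 2.25e-10). On Day 12 its lowest and highest values were both in female embryos, 38.8 CPM in d12_f_271 and 376 CPM in d12_f_245. SLC39A5, SLC39A6, SLC39A10 and SLC39A13 were the other importers called higher in that step, by 1.02 to 1.94 on the log2 scale, and SLC39A6 was not called when sex was a term of the fit. SLC39A1, SLC39A3, SLC39A4, SLC39A7, SLC39A9 and SLC39A11 were called in none.

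Vitamin and choline carriers were 13. On Day 10 over Day 8, 6 were called higher and 1 lower, and on Day 12 over Day 8, 7 were called higher and 1 lower. Among all genes 9.88% were called higher and 4.20% lower in the first comparison, and 22.0% and 10.4% in the second. The summed level was 497 to 722 CPM on Day 8, 602 to 1130 CPM on Day 10 and 821 to 1801 CPM on Day 12. SLC52A3, a riboflavin carrier of epithelia, was at 6.83, 13.9 and 23.6 CPM on Day 8, at 93.4, 210 and 317.3 CPM on Day 10 and at 156, 267 and 455 CPM on Day 12. All embryos of Days 10 and 12 lay above those of Day 8 (log2 fold change of 3.80 ± 0.25 on Day 10, FDR = 1.15e-13), and Days 10 and 12 overlapped. SLC52A2, its paralog, was not called, with medians of 32, 25.9 and 36.6 CPM. Riboflavin kinase (RFK), which turns the vitamin into its cofactor, had medians of 62.9, 84.4 and 154 CPM and was called higher on Day 12 over Day 8 (log2 fold change of 1.28, FDR = 2.97e-07).

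**Figure D4:**
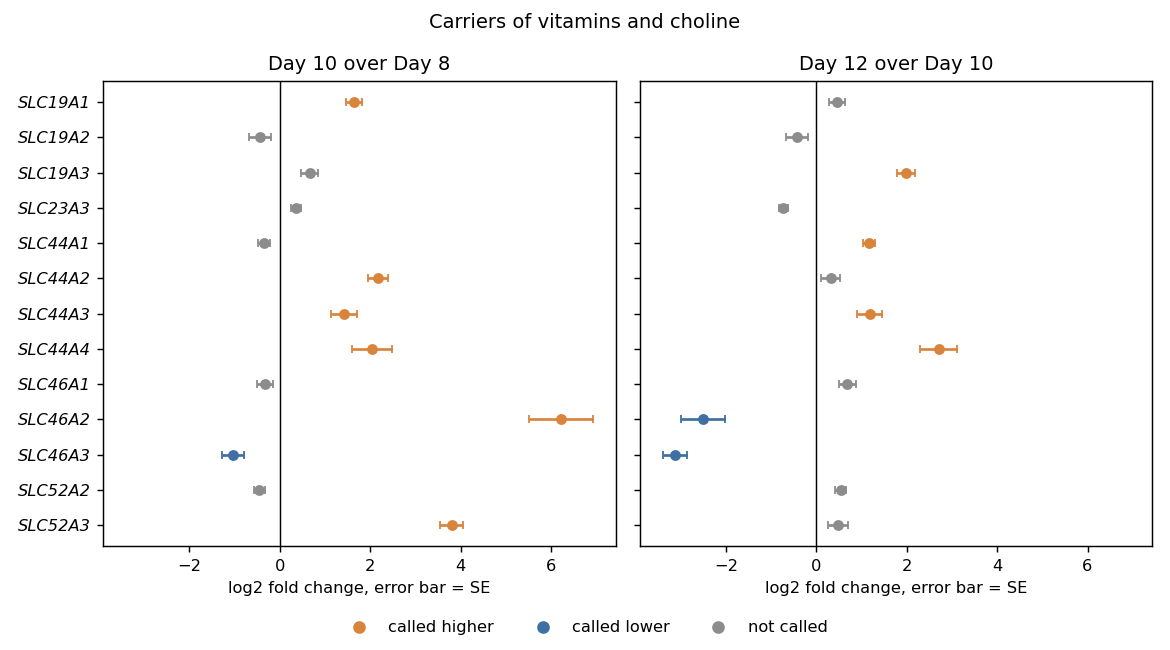
Log2 fold change (horizontal axis, error bar = SE) of the 13 vitamin and choline carriers (vertical axis) on Day 10 over Day 8, left, and on Day 12 over Day 10, right, with called members in colour. SLC52A3 at 3.80 was called higher on Day 10, the value of SLC46A2 rests on 9 embryos with 0 counts on Day 8 and is no measured size, and SLC46A3 at -3.12 was the largest called fall on Day 12.

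The carriers of folate and thiamine differed among themselves. SLC19A1, the reduced folate carrier, was at 5.91 to 10.2 CPM on Day 8 and at 18.7 to 35.4 CPM on Day 10 (1.64 ± 0.18, FDR = 8.42e-09), whereas SLC46A1, the proton-coupled folate carrier, had medians of 165, 124.3 and 225 CPM and was not called. SLC19A3, a thiamine carrier, was called higher on Day 12, from a median of 47.9 to 194 CPM without overlap (1.98 ± 0.20, FDR = 3.46e-10), and SLC19A2, the other thiamine carrier, was not called, with medians of 12.9, 9.12 and 7.18 CPM.

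The paralogs of the folate carrier SLC46A1 moved apart. SLC46A3, a lysosomal carrier, was at 62, 85.2 and 104 CPM on Day 8, at 20.2, 33.7 and 72.9 CPM on Day 10 and at 1.15, 4.47 and 11.9 CPM on Day 12 (-1.03 ± 0.25 and -3.12 ± 0.27, FDR = 0.000743 and 2.3e-11). The call on Day 10 was between overlapping days, and the Day 12 embryos lay below all others. SLC46A2 had 0 counts in 9 embryos of Day 8 and was at or under 3 counts in all 10, and was at 0.0909, 0.603 and 2.42 CPM on Day 10. Measured against the level of 3 counts in each Day 8 library, its mean on Day 10 was at least 7.44-fold higher (FDR = 1.02e-08), and it was called lower again on Day 12 (-2.51 ± 0.49, FDR = 5.42e-05), where 5 embryos were at or under 3 counts. Its counts lie mostly on Day 10, so it likely passed the minimum CPM that the authors applied through that day. A rise and a later fall were then the changes it could show. The call of SLC46A2 on Day 12 over Day 10 was lost in each sex alone.

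Of the 4 choline transporter-like genes, 3 were called higher on Day 10 over Day 8 and 3 on Day 12 over Day 10. SLC44A2 was at 29.2 to 53.7 CPM on Day 8 and at 80.9 to 275.5 CPM on Day 10, without overlap (2.18 ± 0.22, FDR = 8.97e-10). SLC44A4, which carries choline and thiamine pyrophosphate, had medians of 0.316, 1.14 and 10.1 CPM and was called higher in both steps (2.04 ± 0.45 and 2.71 ± 0.41, FDR = 0.000289 and 1.31e-06). SLC44A3 was also called in both steps, and SLC44A1 in the second only, from a median of 108 to 224 CPM. The second call of SLC44A3 was lost when only these 2 days were fitted, and both its calls in each sex alone. Choline kinase CHKA, which uses choline, had medians of 3.47, 13.7 and 27.8 CPM. It was called higher in both steps (log2 fold changes of 1.68 and 1.49, FDR = 1.94e-07 and 5.29e-07). Of the other partners on the choline route, CHPT1 was called higher on Day 10 over Day 8 (1.20, FDR = 1.82e-06). CEPT1 was called lower on Day 12 over Day 10 (-1.69, FDR = 5.95e-15), and CHKB and PCYT1A were called in no comparison. PEMT, which makes phosphatidylcholine from phosphatidylethanolamine, was called higher on Day 10 over Day 8 (35.5 and 281 CPM, 2.82, FDR = 1.93e-13). Of the 17 partners of this group in the table, 6 were called higher and 0 lower on Day 10 over Day 8, and 1 higher and 2 lower on Day 12 over Day 10.

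The carriers of bile acids and organic ions held the member with the largest fall. SLC10A1 (NTCP), which takes up bile acids with sodium in the liver, was at 312, 378 and 507 CPM on Day 8, at 359, 428 and 746 CPM on Day 10 and at 0.269, 0.478 and 1.74 CPM on Day 12. Days 8 and 10 overlapped and were not called apart (0.26 ± 0.15, FDR = 0.144). From Day 10 to Day 12 the level fell by 9.59 ± 0.23 on the log2 scale (FDR = 8.06e-25), a 705-fold difference of the means, and no embryo of Day 12 came near those of the earlier days. SLC10A4 was at 0.829, 1.44 and 3.35 CPM on Day 8 and at or under 3 counts in 6 embryos of Day 10 and all 10 of Day 12, and its mean on Day 8 was at least 11.3-fold higher than the level of 3 counts on Day 12. Its counts lie mostly on Day 8, so it likely passed the authors' minimum CPM through that day, and a fall was the change it could show. Of the SLC22 genes, SLC22A23 was at 9.45 to 14.3, 17.7 to 67 and 88.5 to 235 CPM on the 3 days, without overlap (1.55 ± 0.20 and 2.08 ± 0.20, FDR = 1.28e-07 and 1.8e-10). SLC22A15, SLC22A17 and SLC22A18 were called higher on Day 12 over Day 10 too, by 1.44 to 2.55 on the log2 scale, and the carnitine carrier SLC22A5 was not called. The call of SLC22A18 was lost in each sex alone, and those of SLC22A15 and SLC22A17 in male embryos alone. The multidrug exporter ABCG2, among the partners, was called lower on Day 12, from a median of 532 to 48.3 CPM (log2 fold change of -3.35, FDR = 1.43e-12).

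Nucleoside carriers were represented by SLC28 and SLC29 genes. SLC28A3 (CNT3), which concentrates purine and pyrimidine nucleosides with sodium, was at 768, 1039 and 1288 CPM on Day 8. It was at 61.7, 148 and 396 CPM on Day 10 and at 2.95, 14.9 and 45.4 CPM on Day 12, and each day lay below the one before. The log2 fold change was -2.56 ± 0.37 and -3.39 ± 0.39 (FDR = 9.86e-07 and 6.83e-09). On Day 10 the highest levels were 396 and 345 CPM, in female embryo d10_f_433 and male embryo d10_m_435, and the lowest were 61.7 and 66 CPM, in female embryo d10_f_454 and male embryo d10_m_453. SLC29A1 (ENT1), which lets nucleosides pass down their gradient, had medians of 155, 87.1 and 280 CPM and was called higher on Day 12 over Day 10 (1.61 ± 0.21, FDR = 7.17e-08). Adenosine deaminase (ADA) had medians of 1.14, 6.21 and 17.6 CPM and was called higher in both steps (log2 fold changes of 2.32 and 1.83, FDR = 1.51e-07 and 1.58e-06), and purine nucleoside phosphorylase (PNP) was called lower on Day 10 over Day 8 (40.8 and 14.8 CPM, -1.54, FDR = 9.1e-07). The 5 SLC35A genes, which bring nucleotide sugars into the Golgi, were called in no comparison, with a summed level of 385 to 507 CPM on Day 8, 393 to 457 CPM on Day 10 and 358 to 752 CPM on Day 12.

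The fatty acid transport proteins (SLC27) take up long-chain fatty acids and join them to coenzyme A. SLC27A6 was at 0, 0.192 and 1.97 CPM on Day 8, at 5.54, 28.6 and 369 CPM on Day 10 and at 11, 18.9 and 44.2 CPM on Day 12. No Day 10 embryo reached down to Day 8 (8.12 ± 0.85, FDR = 2.99e-09), but 3 embryos of Day 10, d10_f_454, d10_m_453 and d10_m_333, were at 369, 340 and 269 CPM while the other 7 were at 5.54 to 78.1 CPM. On Day 8 SLC27A6 had at most 9 counts apart from 72 in male embryo d08_m_103, so the size of its rise is uncertain. SLC27A2, which also acts on very long chains, had at most 3 counts in each embryo of Days 8 and 10 and was at 0.287, 0.934 and 2.71 CPM on Day 12, so its mean was at least 8.44-fold higher than on Day 10. It can have passed the minimum CPM that the authors applied only through Day 12. A rise was thus the only change it could show, and its test carries no weight. SLC27A3 was at 0.668 to 2.52 CPM on Day 10 and 9.98 to 43.6 CPM on Day 12, without overlap (3.59 ± 0.26, FDR = 4.68e-13). SLC27A4 and SLC27A5 went down. SLC27A4, the most widely expressed member of the family, had medians of 460, 246 and 143 CPM and was called lower over the whole interval (-1.53 ± 0.17, FDR = 2.16e-09), and SLC27A5, known for bile acid activation in liver, had medians of 2.39, 0.365 and 0.0594 CPM (-4.16 ± 0.46, FDR = 2.22e-09). SLC27A5 had 0 to 9 counts in the Day 12 embryos, so the size of its fall is uncertain. The acyl-CoA synthetase ACSL3, a partner with a related reaction, had medians of 50.5, 686 and 189 CPM (log2 fold changes of 4.28 and -2.59, FDR = 8.15e-11 and 1.51e-07).

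Of the 10 carriers of phosphate, sulfate and organic anions, 1 was called higher and 1 lower on Day 10 over Day 8, and 3 higher and 2 lower on Day 12 over Day 8. SLC13A4, a sodium-sulfate cotransporter of the placenta, was at 206, 278 and 313 CPM on Day 8, at 298, 397 and 481 CPM on Day 10 and at 324, 558 and 917 CPM on Day 12. It was called over the whole interval only (1.08 ± 0.14, FDR = 2.42e-08), in which the days did not overlap, with smaller steps of 0.53 ± 0.13 and 0.55 ± 0.13. PAPSS1 and PAPSS2, which activate sulfate, were called higher on Day 12 over Day 10, the latter with a log2 fold change of 2.07 (FDR = 7.26e-06). The phosphate carrier SLC20A1 had medians of 430, 246 and 172 CPM and was called lower on Day 12 over Day 8 (-1.26 ± 0.21, FDR = 3.14e-06). That call was lost in male embryos alone. SLC20A2 had medians of 22.9, 14.8 and 44.7 CPM and was called higher on Day 12 over Day 10 (1.52 ± 0.14, FDR = 8.35e-11). No comparison called both of them. SLC17A8, a vesicular glutamate carrier, was at 1.24 to 1.91 CPM on Day 8 and at 0 to 0.365 CPM on Day 10 (-2.75 ± 0.34, FDR = 6.56e-08).

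SLC37A2, a sugar phosphate exchanger of the endoplasmic reticulum, was at 6.12, 14.6 and 150 CPM on Day 8, at 3329, 5626 and 7879 CPM on Day 10 and at 1241, 1553 and 2677 CPM on Day 12, and the 3 days did not overlap. Day 10 was higher than Day 8 by 7.08 ± 0.59 on the log2 scale (FDR = 2.61e-11), a 136.1-fold difference of the means. Day 12 was not called lower than Day 10, since its FDR was 0.00209 (-1.71 ± 0.46), and was called by the robust GLM. On Day 8 the levels were spread widely, with female embryo d08_f_105 at 150 CPM, male embryo d08_m_103 at 132 CPM and the other 8 at 6.12 to 47.4 CPM. TMEM218, whose span overlaps that of SLC37A2, had medians of 4.17, 14.9 and 11.7 CPM. The summed level of all 118 members was 8553 to 10241 CPM on Day 8, 10760 to 15328 CPM on Day 10 and 6907 to 9459 CPM on Day 12. Without SLC37A2 it was 8506 to 10216, 7033 to 8622 and 5667 to 8203 CPM, so the higher sum on Day 10 rested on this gene. Its paralogs did not share the pattern. SLC37A1 was called higher on Day 12 over Day 10, from a median of 31.9 to 124.4 CPM without overlap, a 4.01-fold difference of the means (FDR = 1.21e-14), SLC37A4, the glucose-6-phosphate carrier, was called lower on Day 12 over Day 8 (69.1 and 27.4 CPM, -1.18 ± 0.15, FDR = 5.03e-08), and SLC37A3 was not called.

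Embryos of 1 day were not alike. Among the 33 members called on Day 10 over Day 8, female embryo d10_f_433 was the Day 10 embryo nearest to Day 8 in 16, and female embryo d10_f_454 and male embryo d10_m_453 were the farthest from it in 11 and 9. The same count over all called genes is not given here. These embryos were often extreme over all genes with a Day 10 median of at least 1 CPM. They were the lowest for 16.1%, 17.6% and 16.8% of these genes and the highest for 15.5%, 18.6% and 12.7%, in the order named. The pattern is thus not particular to the carriers. Among the 47 members called on Day 12 over Day 10, female embryo d12_f_245 was nearest to Day 10 in 13 and farthest from it in 15. Embryo d12_f_245 was also the lowest Day 12 embryo for 37.6% of the 101 members with a median of at least 1 CPM on that day, and for 29.5% of all such genes, and it had the smallest library. Without it, 47 of 47 calls between Days 10 and 12 remained.

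The labelled tissue was checked against marker lists. The 8 trophectoderm markers were all in the table, with a summed level of 20635 to 25279 CPM on Day 8, 32688 to 50091 CPM on Day 10 and 8630 to 26625 CPM on Day 12, of which 2 were called higher and 3 lower in the last step. This sum was mostly KRT8 (medians of 12406, 25073 and 9154 CPM) and KRT18 (10415, 16491 and 2640 CPM). GATA2, GATA3, TFAP2A, TFAP2C and CDX2 were not called on Day 10 over Day 8. On Day 12 over Day 10, GATA3 and TFAP2A were called higher and CDX2, KRT8 and KRT18 lower. All 6 epiblast markers were in the table, and 5 of them were called lower on Day 12 over Day 10. Their sum, at 43.5 to 65.9, 284 to 1188 and 62.6 to 134 CPM, was mostly TDGF1, with medians of 14.2, 593.3 and 81.3 CPM, while POU5F1 (31.5, 13.7 and 1.54 CPM) and PRDM14 were called lower on Day 10 over Day 8 and TDGF1 and LIN28B higher. The 6 hypoblast markers were at 278 to 411, 146 to 196 and 169 to 1247 CPM, and 4 were called higher on Day 12 over Day 10. PDGFRA, 1 of these 4, had medians of 80.6, 59.7 and 219 CPM and reached 910 CPM on Day 12. GATA6 went the other way, with medians of 139, 57.1 and 43.9 CPM, and was called lower on Days 10 and 12 over Day 8. Of 5 mesoderm symbols, 2 were in the table, at most 6.59 CPM in sum. Markers of uterine epithelium (2 of 6 in the table, at most 12.1 CPM) and of blood (2 of 6, at most 10.6 CPM) were low in sum but moved between days. MUC1 was called higher on Day 10 and on Day 12 over Day 8, with medians of 0.159, 0.519 and 5.44 CPM, as was ALAS2, with 0.684, 2.08 and 2.57 CPM. HBB was called higher on Day 12 over Day 8, with medians of 0, 0 and 0.945 CPM. The part of these cell types in the changes of the carriers was not tested.

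Between sexes, 1 of the 99 members tested on Day 8 was called, or 1.01%, against 0.658% of all genes of that day. On Day 10, 0 of 106 members were called against 0.223% of all genes, and on Day 12, 0 of 104 against 0.123%. At an unadjusted p under 0.05 the quasi-likelihood test of edgeR found 3, 3 and 17 members on these days, or 3.03%, 2.83% and 16.3%, against 4.59%, 2.36% and 22.7% of all genes. The robust GLM called 1, 0 and 1 members and DESeq2 called 1, 1 and 2. The share of all genes that these tools called is not given here, so these counts cannot be set against it. At an unadjusted p under 0.05 the robust GLM found 8.08%, 4.72% and 24% of members, against 5.9%, 2.32% and 21.7% of all genes. DESeq2 found 4.04%, 4.72% and 23.1% of members, against 4.82%, 2.84% and 26.5%.

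The member called on Day 8 was SLC10A3, 1 of the 4 X-linked members (X, 125010128 to 125013992), whose product has no settled substrate. On Day 8 the 5 female embryos were at 72.4, 71.8, 75.2, 78.4 and 70.4 CPM and the 5 male embryos at 43, 52.4, 57, 52.5 and 44 CPM. The sexes did not overlap, and female was higher by 0.57 ± 0.085 on the log2 scale (FDR = 0.0056, edgeR quasi-likelihood test). On Day 10 the female embryos were at 81.5 to 125 CPM and the male embryos at 63.6 to 74.3 CPM (0.52 ± 0.12, FDR = 0.286 by edgeR), and on Day 12 at 83.6 to 90.6 and 52.5 to 71.5 CPM (0.46 ± 0.12, FDR = 0.198 by edgeR). The sexes thus did not overlap on any day, while the adjusted test passed on Day 8 only, and DESeq2 called the gene on all 3 days.

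**Figure D5:**
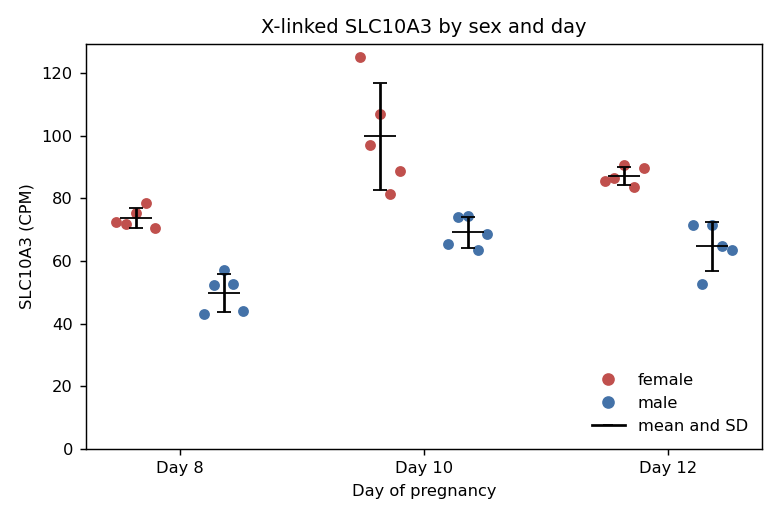
CPM of SLC10A3 (vertical axis, from 0) in each of 5 female and 5 male embryos by day (horizontal axis), with the mean and SD as a black mark and bar. Female embryos were above all male embryos of their day on Days 8, 10 and 12.

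SLC35A2 and SLC9A7, also X-linked, were not called between sexes. SLC35A2 (X, 42981801 to 42992091), which carries UDP-galactose into the Golgi, had a mean of 60.5 ± 3.91 CPM on Day 8 among female embryos and of 55.5 ± 7.33 CPM among male ones (SD, n = 5 each). SLC9A7 (X, 41233308 to 41399032), a sodium-proton exchanger of the Golgi, had means of 1.87 ± 0.454 and 1.75 ± 0.602 CPM. On Day 12 its means were 1.73 ± 0.504 and 3.78 ± 2.35 CPM, with overlap of the sexes.

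On Day 12 the autosomal zinc importer SLC39A6 was at 7.23 to 17.6 CPM in the 5 female embryos and at 19.2 to 26.6 CPM in the 5 male embryos, without overlap. It was not called by the quasi-likelihood test of edgeR (log2 fold change, female over male, of -0.93 ± 0.22, FDR = 0.198) and was called by the robust GLM and DESeq2. On Day 8 its ranges were 13.1 to 17.6 and 12.3 to 18.3 CPM. Tested directly, a change between days that differed between sexes was found for 0 of the 118 members in each of the 3 comparisons, against 0.00% of all genes. At an unadjusted p under 0.05 there were 0 members for Day 10 over Day 8 against 0.763% of all genes, 14 (11.9%) for Day 12 over Day 10 against 18.9%, and 21 (17.8%) for Day 12 over Day 8 against 21.8%. The robust GLM called 1 of the 118 members for Day 12 over Day 10, SLC30A5, against 1.91% of all genes. For Day 12 over Day 8 it called 5 of the 118, against 4.21% of all genes. These were SLC10A7, SLC33A1, SLC30A5, SLC30A6 and SLC39A6. On Day 12 all 5 had their lowest values in female embryos d12_f_245, d12_f_271 and d12_f_289. SLC10A7 was at 6.24 to 7.8 CPM in them and at 15 to 19.8 CPM in the other embryos of both sexes. For SLC30A6 these ranges were 22.9 to 35.1 and 49.4 to 71 CPM.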

How the data were processed

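Sequencing of mRNA from 30 single embryos gave the deposited raw read counts per NCBI gene identifier, without normalization, in a table of 13103 genes for all embryos and tables of 11405, 11675 and 12220 genes for Days 8, 10 and 12. Before depositing the counts, the authors trimmed the reads, aligned them to the pig assembly, assigned them to NCBI genes and applied a minimum CPM, so genes with low counts in most embryos are not in the tables. The counting tool, its use of strand and that minimum are not given in the sources used here, and of the 118 members 24 overlap another gene of the table, so that reads of such pairs may not be separated. Counts of the day tables were identical to those of the first table. All 60 pairs of embryos of 1 group differed by more than sampling noise, with a chi-square of at least 7.33 per degree of freedom. Symbols and positions came from RefSeq for Sscrofa11.1, by identifier, for 13103 of 13103 genes.

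Tests used R 4.3.3 and edgeR 4.0.16 (TMM factors, robust quasi-likelihood F test, Benjamini-Hochberg adjustment over all genes of a table), and DESeq2 1.42.0 as an alternative. Days were compared in 1 fit of 3 groups on the table of all embryos, called at an FDR under 0.001 and an absolute log2 fold change over 1. Sexes were compared, female over male, in the table of their day at an FDR under 0.05, and a difference of day changes between sexes in a fit of 6 groups. The SE is the size of the log2 fold change over the square root of F. CPM values use the TMM factors of the first table. A group with all embryos at or under 3 counts (0.0823 to 0.434 CPM, depending on the library) was given as a bound against that level. The bounds take account of counting error only, and the SE of the spread between embryos. Tables were made with Python 3.11.15.

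Named members are the 8 with the largest called rise and fall in each comparison of days, the highest mean of each substrate group, X-linked members, members called between sexes, and their paralogs and partners. Genes of the SLC19, SLC20, SLC22, SLC29 and SLC33 families, the stretch on chromosome 9 and the choice of embryos d12_f_245, d12_f_271 and d12_f_289 were picked after their values were seen. Some members are not reported here by name. Members, substrate groups and partner lists were chosen with earlier results of these data known. Alternatives were a robust GLM, DESeq2, RLE factors, library size alone, filters of 10 counts in 5 embryos or of a mean CPM of 1, a fit that included sex, fits to the 2 days compared, fits to 1 sex, and embryos left out. On simulated counts with 200 genes changed 4-fold, 88.5% were recovered across all embryos, with 0 false calls. The recovered share was 96.5% for Day 8 (12 false calls), 94.0% for Day 10 (7) and 86.0% for Day 12 (7).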

Additional observations from a re-analysis of the deposited data

Results flagged for a closer look

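Among 38 named members, 114 groups of 10 embryos of a day were searched for an embryo far from the others by Dixon's criterion, which chance meets in about 1 of 20 groups, and 11 met it. Female embryo d12_f_245, the smallest library, accounted for 3 on Day 12. It had SLC31A2 at 0.723 CPM (the other 9 embryos at 2.52 to 4.68), SLC4A5 at 0.145 CPM (others 0.6 to 1.25) and SLC17A8 at 0.579 CPM (others 0.041 to 0.163). Male embryo d08_m_103 accounted for 3 on Day 8, with SLC39A2 at 28.9 CPM (others 46.1 to 68.9), SLC27A6 at 1.97 CPM (others 0 to 0.334) and SLC27A2 at 0.0548 CPM (others 0). Male embryo d12_m_275 had SLC39A2 at 60.1 CPM on Day 12, below the other 9 embryos at 105.5 to 198 CPM. On Day 10, female embryo d10_f_336 had SLC27A3 at 0.668 CPM (others 1.3 to 2.52), male embryo d10_m_453 had SLC17A8 at 0 CPM (others 0.148 to 0.365) and male embryo d10_m_321 had SLC27A2 at 0.0869 CPM (others 0). On Day 8, male embryo d08_m_136 had SLC46A2 at 0.0743 CPM (others 0). The values of SLC27A2, SLC46A2, SLC4A5 in d12_f_245 and SLC17A8 in d10_m_453 are at or under 3 counts. SLC17A8 in d12_f_245 had 4 counts, against 1 to 4 in the other Day 12 embryos.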

How the results depend on the processing

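With both sexes in the fit, each number of members called between days stayed within 1.5 times of its value under the robust GLM, DESeq2, RLE factors, library size alone, both filters, sex as a covariate, fits to the days compared, and without d12_f_245 or the 3 Day 12 female embryos. In those fits 30 of 33, 42 of 47 and 54 of 56 calls for Day 10 over Day 8, Day 12 over Day 10 and Day 12 over Day 8 were lost in none that gave a value, and 15, 27 and 41 when fits to 1 sex were counted too. The filter on mean CPM gave a value for 28, 42 and 47 of them. With 5 embryos a day, members called higher on Day 10 over Day 8 were 13 in female and 14 in male embryos in place of 24, those called lower were 5 in female embryos in place of 9, and those called higher on Day 12 over Day 10 were 20 in male embryos in place of 33, with fewer embryos in the fit. No call changed direction in these fits. Between sexes, DESeq2 called 1 member on Day 10 and 2 on Day 12 and the robust GLM 1 on Day 12, in place of 0, and the robust GLM found 5 members with a day change that differed between sexes in place of 0; the cause was not tested. Leaving out 1 embryo at a time gave 1 call between sexes on Day 8 and 0 on Days 10 and 12 each time. Library size alone shifted the median log2 fold change of all genes by -0.18, 0.20 and 0.02, and the share of calls that were higher on Day 10 over Day 8 went from 72.7% to 63.6%. No paired analysis was possible because the groups share no embryo numbers and the labels name no gilt. Depth limits members at or under 3 counts in every embryo, 2 on Day 8 and 1 on each of Days 10 and 12.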
